A study of Mus musculus with 4 samples.

Results

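The comparison described here set 1 RNA-seq library of brain endothelial cells from an E18 mouse embryo group with Ucp2 deleted through Tie2-cre (UCP2f/f;Tie2-cre, the knockout) beside 1 library of E18 wild-type brain endothelial cells. These are 2 of the 4 libraries of the series, and the other pair holds the same genotypes at E15. Both groups were of the C57BL/6 strain, and neither carries any further allele or treatment in its labels. Genes were kept when they lay off the X and Y chromosomes, reached 1 CPM, the count scaled to the library's total, in at least 1 of the E18 libraries and had 50 reads over both. That left 11920 of the 17344 genes of the E18 table. The deposited counts summed to 19075407 reads for the wild type and 21992660 for the knockout. With 1 library per side there is no replicate check, so a ratio compares these libraries and not the genotypes, and no p-value is given. The series' design text mentions replicates, but each group held 1 library here.

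UCP2 is a carrier of the mitochondrial inner membrane, related to the brown fat uncoupling protein UCP1, and is linked to the export of metabolites from the matrix and to the restraint of mitochondrial reactive oxygen species. Tie2 encodes the angiopoietin receptor TEK, and Tie2-cre recombines floxed alleles in endothelium and also in most blood cells, so that haematopoietic cells of these embryos can carry the deletion as well. Brain endothelium at late gestation forms the blood-brain barrier, remodels its vessels and secretes factors that act on neural precursors around the switch from making neurons to making astrocytes, which is the subject of the series. The sources used here do not give the method of isolation.

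Ucp2 (ENSMUSG00000033685, chromosome 7, 100493337 to 100502020 on GRCm38) was counted 6696 times, or 351 CPM, in the wild-type library and 3296 times, or 150 CPM, after deletion. Below, a pair of read counts always gives wild type first and knockout second. The log2 ratio of knockout over wild type, here and below with 1 CPM added to both levels, was -1.22, and the 95% interval of the log2 ratio of the scaled counts ran from -1.29 to -1.17. These intervals carry no added CPM and cover counting error only. Ucp2 transcripts were thus 2.34-fold lower but still detected. Fold values of this kind carry no added CPM, whereas genes were counted as past 2-fold by the log2 ratio with 1 CPM added. The deleted exons are not given in the labels, and other exons or cells without Cre can add reads, so the remaining level does not measure how complete the deletion was. Ucp2 overlaps Dnajb13 on the opposite strand, which was too weak to be measured. At E15 the pair was 4285 and 2666 reads, a log2 ratio of -0.75.

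The E18 libraries also differed in sex. Of the Y-linked genes, Ddx3y had 5826 wild-type reads, Eif2s3y 821, Uty 499 and Kdm5d 314, and all 4 were at 0 in the knockout. Xist, the RNA of the inactive X chromosome, had 0 and 547 reads. Genotype and sex therefore cannot be told apart at E18 in any result below. The 423 X-linked genes that met the same limits on reads had a median log2 ratio of 0.02, with 13 at least 2-fold higher and 21 at least 2-fold lower. At E15 Xist was counted in both libraries, at 2549 and 2109 reads.

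Endothelial identity was plain in both libraries. All 26 pan-endothelial markers on a list of that name were measured, with a summed level of 24502 CPM in the wild-type and 23925 CPM in the knockout library and a median log2 ratio of -0.07. Kdr, the main VEGF receptor, had 64942 and 63205 reads, Pecam1 had 16223 and 17331, and Cdh5, the adherens junction cadherin of endothelium, had 5959 and 8506. Other cells of the vessel wall were present too. The pericyte gene Rgs5 had 131818 and 192751 reads, a log2 ratio of 0.34, and Kcnj8, a pericyte potassium channel subunit, was at 0.40. The summed level of all listed mural genes in the E18 table was 10242 CPM in the wild-type and 12598 CPM in the knockout library. Of 16 measured, 11 lay above 0 and none reached 2-fold with 1 CPM added. With 0.5 CPM added the smooth muscle actin gene Acta2 did, at -1.02. In samples of this kind fewer cells of a type and less RNA per cell cannot be told apart.

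Over all 11920 genes, 343 (2.88%) were at least 2-fold higher in the knockout library and 458 (3.84%) at least 2-fold lower, and the median log2 ratio was 0.00. Most of these genes were weakly expressed. Of 885 genes with a mean of up to 2 CPM, 9.38% were higher and 12.1% lower, whereas among 2930 genes of 10 to 30 CPM the shares were 1.91% and 2.56%. Above 100 CPM only 6 genes passed 2-fold, and these are described first. Long transcripts were lower as a class: the median log2 ratio was 0.05 in the shortest and -0.16 in the longest of 10 equal classes of exon length, against 0.06 and -0.03 at E15. Genes in the Ensembl class TEC, unspliced transcripts awaiting experimental tests, had a median of -0.78 and protein-coding genes one of 0.01.

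**Figure D1:**
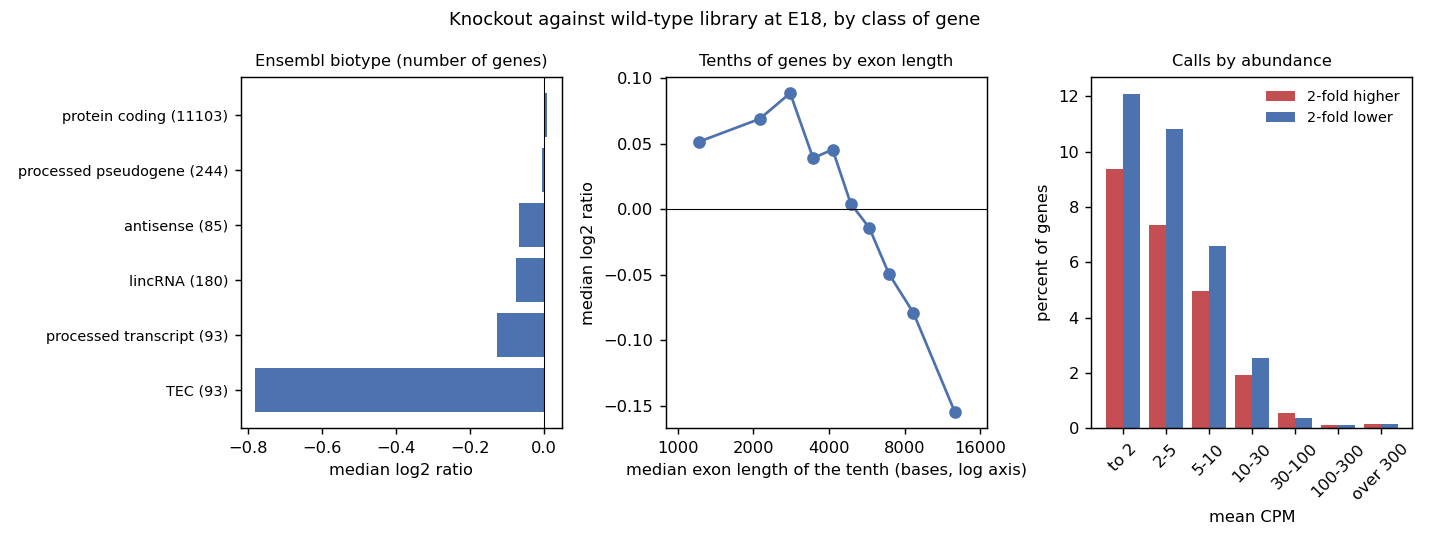
Left, median log2 ratio of knockout over wild type for Ensembl classes of at least 80 genes; middle, the same median for 10 equal classes of genes ordered by exon length (bases, log axis); right, percent of genes at least 2-fold higher (red) or lower (blue) by mean CPM. TEC genes stand at -0.78, the medians run from 0.05 in the shortest to -0.16 in the longest class, and the called share drops from 9.38% and 12.1% in the weakest genes to under 1% above 30 CPM.

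**Figure D2:**
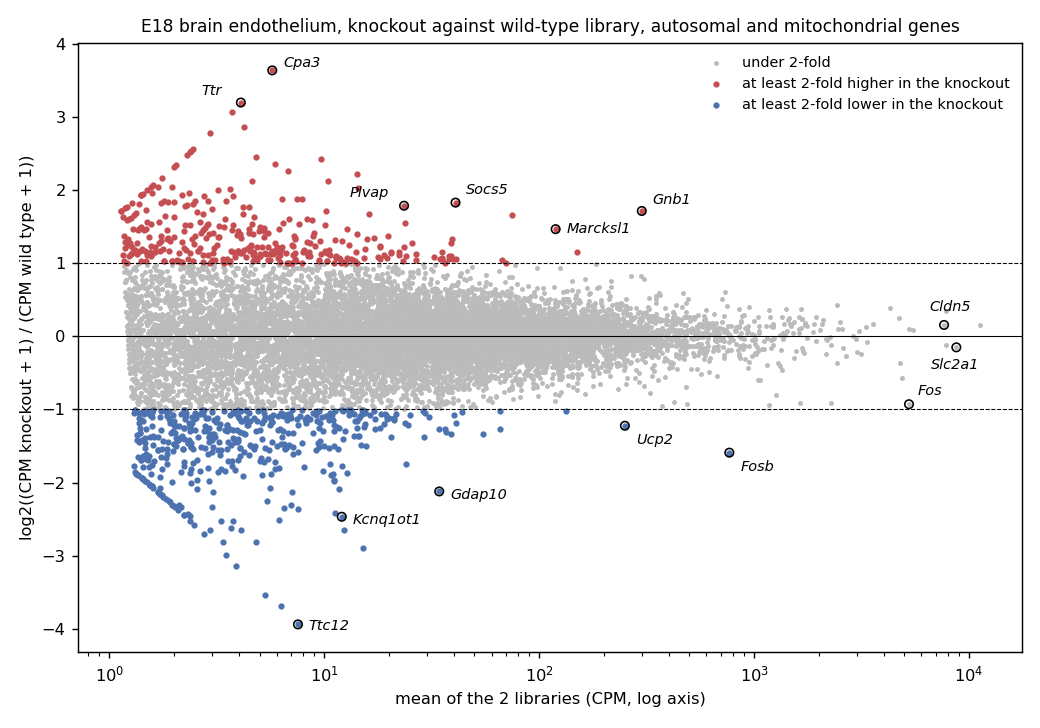
Each point is 1 of the 11920 genes, placed by the mean CPM of the E18 libraries (log axis) and the log2 ratio of knockout over wild type with 1 CPM added; dashed lines mark 2-fold. Red points (343 genes) are at least 2-fold higher and blue points (458 genes) at least 2-fold lower in the knockout library, and the spread narrows with abundance until Ucp2, Fosb and Gnb1 are among the few abundant genes beyond the lines.

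The abundant genes on the higher side were Gnb1, Marcksl1 and Ccdc85b. Gnb1 (chromosome 4, 155491361 to 155559269) encodes a beta subunit of heterotrimeric G proteins and had 2663 and 10134 reads, 140 and 461 CPM, which is 3.30-fold higher (log2 ratio 1.72, interval 1.66 to 1.78). Marcksl1, an actin-binding protein of the MARCKS family, had 1200 and 3864 reads, a log2 ratio of 1.47. Ccdc85b, a small coiled-coil protein, had 1765 and 4550 reads, a log2 ratio of 1.15. Each of these was also higher in the knockout library at E15, with log2 ratios of 0.76 for Gnb1, 1.87 for Marcksl1 and 0.66 for Ccdc85b. The E15 libraries share no sample with the E18 libraries. On the lower side stood Ucp2, the AP-1 gene Fosb and Eno1b. Eno1b, a near-identical copy of the glycolytic enolase gene Eno1, had 3398 and 1919 reads (log2 ratio -1.02), and at E15 2960 and 25 reads. Eno1 itself had 10555 and 13334 reads, a log2 ratio of 0.13. Reads of Eno1 and Eno1b are hard to assign to the right copy, so the values of Eno1b are uncertain.

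Among the 8415 genes with at least 10 CPM in 1 of the E18 libraries, the 12 with the highest ratios included genes of several cell types. Cpa3, a mast cell carboxypeptidase, had 0 and 252 reads. Against a floor of 3 reads in the wild-type library this is at least 72.9-fold higher. C1qtnf12, a secreted C1q/TNF-related protein, had 45 and 375 reads (log2 ratio 2.43). Fcrls, a marker of microglia, had 24 and 232 reads (2.35). Olfml2b, an extracellular olfactomedin-domain protein, had 32 and 261 reads (2.26), and Dock10, an exchange factor for small GTPases, had 62 and 387 (2.13). Sumf1, the enzyme that activates sulfatases, had 83 and 528 reads (2.22), and it was also higher at E15, with 244 and 1502 reads (2.48). The remaining genes of the 12 were the processed pseudogene Gm14276, the protocadherin Pcdhb9, the neutrophil granule gene Ngp, the clock-output transcription factor Hlf, and Socs5 and Plvap. Socs5, an inhibitor of cytokine receptor signalling, had 331 and 1413 reads, 17.4 and 64.2 CPM, which is 3.70-fold higher (log2 ratio 1.83, interval 1.71 to 2.07). At E15 it had 829 and 1421 reads (0.70).

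The 12 genes with the lowest ratios at that level were of another kind, with non-coding transcripts among them. Ttc12, a tetratricopeptide repeat protein needed for the dynein arms of motile cilia, had 287 and 1 reads, a log2 ratio of -3.94. At E15 it had 158 and 108 reads. C130089K02Rik and Gm43696, transcripts annotated within the genes Maml3 and Lrig2 on the same strand, had 238 and 1 reads and 202 and 0 reads. Gm45836, annotated as a long intergenic non-coding RNA, had 521 and 62 reads (-2.89), and the imprinted antisense RNA Kcnq1ot1 had 403 and 66 (-2.47). At E15 the log2 ratios of C130089K02Rik, Gm43696, Gm45836 and Kcnq1ot1 were 0.21, 0.13, 0.10 and -0.31, so none of them was 2-fold lower there. Of the protein-coding genes, Zfp420, a zinc finger protein, had 421 and 59 reads (-2.65). Slc38a6, an amino acid transporter, had 213 and 25 (-2.51). Adamtsl4, a protein of microfibrils, had 254 and 39 (-2.37), and Dclre1c, the Artemis nuclease of DNA end joining, had 232 and 44 (-2.13). Kif21a, a kinesin, had 219 and 32 reads (-2.35), and Trim2, a ubiquitin ligase, had 235 and 37 (-2.31). Kif21a and Trim2 were also 2-fold lower at E15, at -1.26 and -1.82. The last of the 12 was Pcdhgb8, treated below with the protocadherins.

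Some genes had 0 reads in 1 library and at least 100 in the other. On the higher side these included, besides Cpa3, Ttr, the thyroxine carrier of choroid plexus, with 180 reads in the knockout library, Tmc5 with 163, the microglial gene Tmem119 with 108, the mast cell tryptase gene Tpsb2 with 106, Fhl4 with 104 and the homeobox gene Pknox2 with 101. On the lower side, besides Gm43696, they were Pcdhb8 with 149 reads in the wild-type library, Nol4 with 133 and the deubiquitinase gene Usp35 with 105. Against the floor of 3 reads, Ttr was at least 52.0-fold higher and Pcdhb8 was at least 57.3-fold lower. Genes at 0 were more common in the knockout library although it held more reads. Over all genes listed at E18, 665 wild-type and 1606 knockout counts were 0, against 728 and 1057 at E15.

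The barrier program was nearly level between the libraries. Of 24 measured transporters and transcytosis genes of the blood-brain barrier, 11 lay above and 13 below 0, with a median of -0.05, and 1 passed 2-fold. The glucose transporter Slc2a1 had 175040 and 181930 reads (-0.15), and Mfsd2a, the lipid transporter that keeps transcytosis low, had 41549 and 46624 (-0.04). Slco1a4, an organic anion transporter, had 294 and 633 reads (0.86), and Slc7a5, which carries large neutral amino acids, had 11172 and 18361 (0.51). The 18 measured junction genes had a median of 0.07 with none at 2-fold, and Cldn5, the main claudin of the barrier, had 138016 and 177338 reads (0.16). Tjp1 and Pard3, a scaffold of tight junctions and a polarity protein, were at -0.35 and -0.49.

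The gene of the barrier list beyond 2-fold was Plvap (chromosome 8, 71497765 to 71511752), which forms the diaphragms of fenestrae and caveolae and is lost as brain vessels mature. It had 191 and 814 reads, 10.01 and 37.0 CPM, which is 3.70-fold higher (log2 ratio 1.79, interval 1.66 to 2.12). At E15 its level was higher in both libraries, with 2829 and 1714 reads, and its ratio pointed the other way, at -0.79. Plvap overlaps Gtpbp3 on the opposite strand, and no source used here says whether reads were counted by strand. Gtpbp3 had 685 and 522 reads at E18, a log2 ratio of -0.58. Plvap is also high in vessels outside the barrier, such as those of the choroid plexus. In the choroid plexus and ependyma list, 4 of 16 markers were measured. The summed level of all listed genes in the E18 table was 171 CPM in the wild-type and 222 CPM in the knockout library. Of this, Enpp2 alone held 166 and 204 CPM (log2 ratio 0.29). Its defining gene Ttr was at 0 and 180 reads, and Aqp1 at 26 and 73. Their part in the Plvap difference was not tested.

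**Figure D3:**
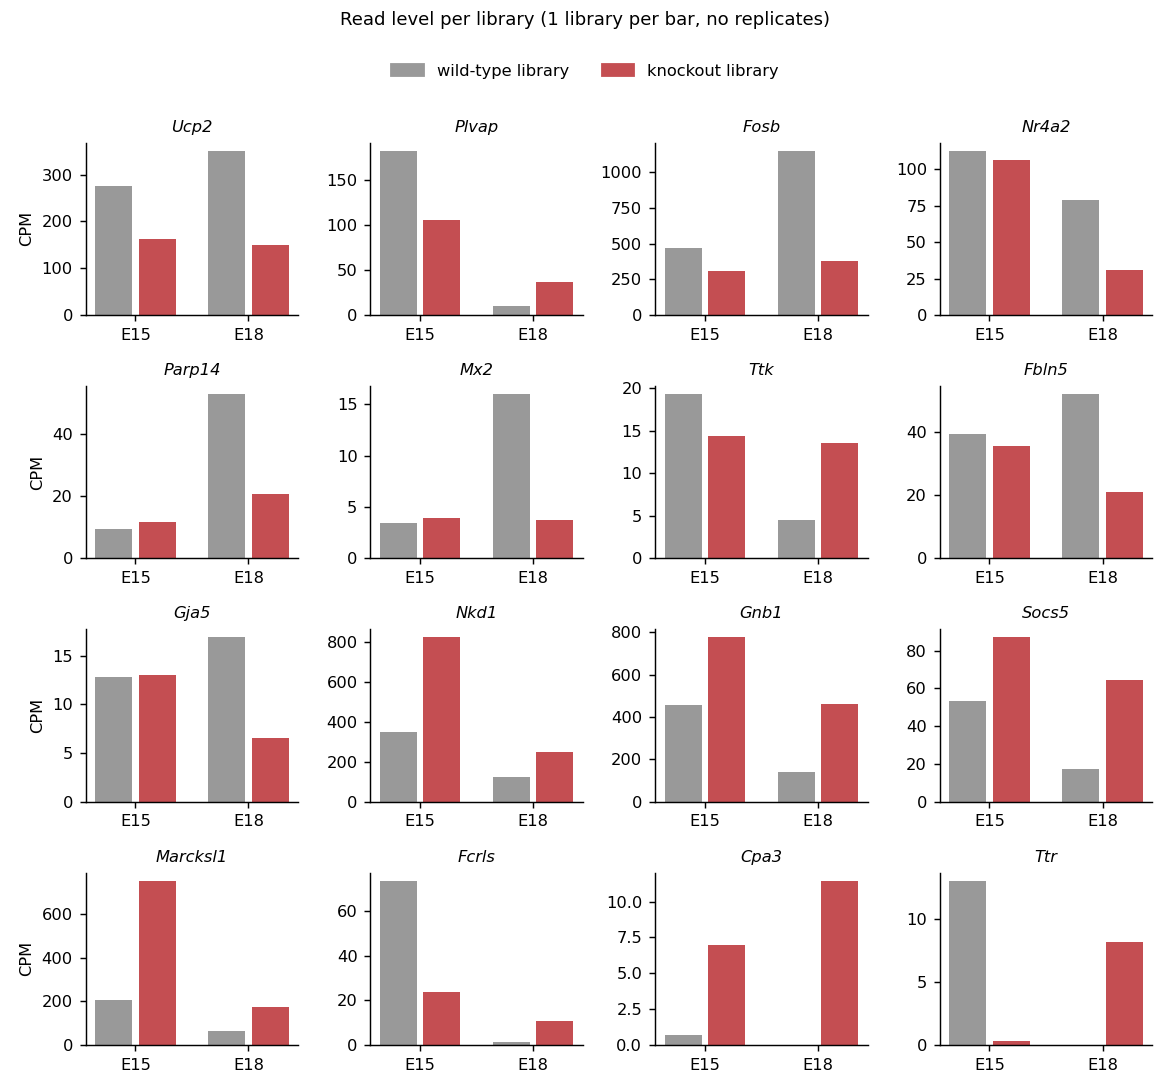
Levels of 16 genes in CPM (vertical axis from 0, a scale of its own in each panel) in the wild-type (grey) and knockout (red) library at E15 and E18, each bar 1 library. Plvap, Fcrls and Ttr are higher in the knockout library at E18 and lower at E15, whereas Gnb1, Socs5 and Marcksl1 are higher and Ucp2 is lower at both stages.

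Signals that shape vessels differed little as groups. Of 23 measured Wnt and beta-catenin genes 14 lay above 0, with a median of 0.12. Wnt signalling drives brain vessel ingrowth and the barrier, and Dkk2, a secreted Wnt modulator, was the 1 gene past 2-fold, with 255 and 681 reads (1.15). Nkd1, a feedback inhibitor that Wnt signalling induces, had 2353 and 5408 reads, 123 and 246 CPM, at a log2 ratio of 0.99 just inside the limit, and at E15 it had 5395 and 13405 reads (1.24). Axin2 and Lef1, other targets of the pathway, stood at -0.12 and 0.12. The 20 Notch genes split into 10 above and 10 below 0. Their ligand Dll4 had 6626 and 5988 reads (-0.35), and Hes1, a target, had 807 and 1453 (0.63). None of the 14 measured genes of the VEGF and angiopoietin axes passed 2-fold; the receptor Flt1 was at 0.36 and the ligand Vegfc, with 836 and 527 reads, at -0.84. Among 25 TGF-beta and BMP genes the median was -0.01. The receptor Tgfbr2 had 7088 and 12308 reads (0.59), and the ligands Bmp2 and Tgfb3 were at -0.97 and -0.95.

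Genes of arterial endothelium lay mostly below 0. Of 16 measured, 11 were below 0 and 2 were at least 2-fold lower (12.5%, beside 3.84% of all genes), with a median of -0.17. Fbln5, an elastic fibre protein, had 990 and 460 reads, 51.9 and 20.9 CPM, which is 2.48-fold lower (log2 ratio -1.27, interval -1.47 to -1.15). Gja5, the arterial gap junction protein connexin, had 322 and 143 reads (-1.25, interval -1.67 to -1.09). At E15 the libraries were close, with 611 and 580 reads of Fbln5 and 199 and 212 of Gja5. Other arterial genes were nearer to level: Gja4 at -0.07, Hey1 at -0.19 and Efnb2, the arterial ephrin, at -0.25. Acta2, the actin of smooth muscle that wraps arteries, had 68 and 33 reads (-0.87); the part of arterial wall cells in these values was not tested. The 13 venous genes had a median of 0.04, with the venous transcription factor Nr2f2 at -0.42. Of 13 flow-responsive genes 2 were at least 2-fold lower (beside 3.84% of all genes), the aryl hydrocarbon receptor Ahr with 138 and 42 reads (-1.50) and the cytochrome Cyp1b1, which AHR induces, with 71 and 28 (-1.05). Both were weak, and 10.8% of all genes with a mean of 2 to 5 CPM were 2-fold lower. Klf2 and Klf4, the transcription factors most tied to laminar flow, were at -0.35 and -0.22.

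Of 22 genes of tip cells and sprouting, 17 lay below 0 with a median of -0.19 and none passed 2-fold. Plxnd1, a semaphorin receptor, and Esm1, a secreted proteoglycan of tip cells, were at -0.65 and -0.62. The type IV collagen gene Col4a1 had 102701 and 91685 reads (-0.37). Of 20 basement membrane genes 15 lay below 0, with Fn1, fibronectin, at -0.60 (23994 and 18224 reads) and Lama1, a laminin chain, at -0.64. The median of this group was -0.14, and -0.03 once the median ratio of genes of similar exon length was taken off. Col15a1, a collagen of vessels outside the barrier and of fibroblasts, was the exception in the list with 5 and 48 reads (1.33).

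Most immediate early genes lay below 0, few of them by 2-fold. These genes encode transcription factors, such as the FOS and JUN partners of AP-1, that are transcribed within minutes of stimulation, also during tissue dissociation. Of 28 measured, 21 lay below 0, 3 were at least 2-fold lower (10.7%, beside 3.84% of all genes) and 1 at least 2-fold higher (3.57%, beside 2.88%), with a median of -0.40. The summed level of all listed immediate early genes in the E18 table was 30206 CPM in the wild-type and 19177 CPM in the knockout library. Fosb (chromosome 7, 19302696 to 19310051) had 21964 and 8394 reads, 1151 and 382 CPM, which is 3.02-fold lower (log2 ratio -1.59, interval -1.63 to -1.56). The orphan nuclear receptors Nr4a2 and Nr4a3 had 1500 and 671 reads (-1.34) and 57 and 4 reads (-1.75). Fos had 131387 and 79624 reads (-0.93), Egr1 56447 and 34696 (-0.91), and Btg2, an antiproliferative gene, 40465 and 24861 (-0.91). Jun and Junb were nearer to level, at -0.57 and -0.36. The opposite direction was taken by Arc, a neuronal activity gene, with 13 and 126 reads (2.00), and Ier2, with 11056 and 19491 reads (0.61). At E15 the median of the same genes was -0.08, with Fosb at -0.60, Fos at -0.33 and Btg2 at 0.14. The cAMP response element TGACGTCA, searched on both strands of the RefSeq promoters (GRCm38.p6, 250 bases before to 50 after the start), stood in 3 of the 21 promoters matched for this family (14.3%), those of Dusp1, Btg2 and Maff, and in 3.88% of the 8848 promoters matched over all genes. None of these 3 was 2-fold different, and the letters stood in 0 of the 3 matched promoters of genes that were 2-fold lower.

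Stress genes did not move as a block with the immediate early genes. The 19 heat shock chaperones had a median of 0.02. Hspa1a, the inducible HSP70, had 3017 and 1985 reads (-0.80), the collagen chaperone Serpinh1 had 4276 and 8546 (0.79), and Cryab, a small heat shock protein, had 120 and 420 (1.46), the 1 gene past 2-fold. Genes of the unfolded protein response, which serve folding in the endoplasmic reticulum, lay above 0 in 19 of 22 with a median of 0.27, and none reached 2-fold. Sdf2l1 and Dnajb11, partners of the chaperone BiP, were at 0.65 and 0.59, and Hspa5, BiP itself, had 15159 and 21278 reads (0.28). At E15 their median was 0.10, with 15 of 22 above 0. Of 13 genes of inflammatory endothelial activation 1 was at least 2-fold lower: Ptgs2, the inducible cyclooxygenase, had 442 and 241 reads at E18 (-1.02) and 49 and 148 at E15 (1.28).

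Genes that interferons induce lay nearly all below 0. They act in antiviral defence and are switched on at a response element whose core letters are GAAANNGAA. Those letters, searched on both strands of the same promoters, stood in 18 of the 26 interferon-stimulated genes matched (69.2%) and in 8.43% of the 8848 promoters matched over all measured genes. They stood in 3 of the 4 matched genes that were at least 2-fold lower and in 15 of 22 that were not called. The windows below, printed 5′ to 3′ on the strand of the gene with each match in capitals, are those of the 3 genes that were 2-fold lower, followed by Igtp and Gbp2, which were not. They lie at chr19:34640760-34640833, chr19:34583354-34583455, chr8:61928014-61928096, chr11:58199502-58199550 and chr3:142620585-142620633 on GRCm38.p6, all on the plus strand, and include 20 bases on each side.
Ifit1: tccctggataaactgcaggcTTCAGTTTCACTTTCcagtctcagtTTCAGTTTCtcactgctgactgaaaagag
Ifit3: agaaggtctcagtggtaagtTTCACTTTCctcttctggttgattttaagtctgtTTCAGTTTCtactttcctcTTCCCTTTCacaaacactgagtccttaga
Ddx60: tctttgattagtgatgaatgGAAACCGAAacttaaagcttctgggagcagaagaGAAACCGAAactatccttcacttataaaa
Igtp: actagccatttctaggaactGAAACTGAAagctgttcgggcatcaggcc
Gbp2: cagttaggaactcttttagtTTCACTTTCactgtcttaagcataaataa

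Of 34 measured interferon-stimulated genes, 31 lay below 0 and 7 were at least 2-fold lower, 20.6% of the list beside 3.84% of all genes. None was 2-fold higher, and the median was -0.42. The antiviral GTPase Mx2 had 305 and 82 reads, 16.0 and 3.73 CPM, which is 4.29-fold lower (log2 ratio -1.85, interval -2.47 to -1.74). Parp14, a mono-ADP-ribosyltransferase, had 1005 and 456 reads (-1.30), and the helicase gene Ddx60 had 204 and 81 (-1.32). Ifit1, Ifit2 and Ifit3, which bind viral RNA or assist in it, had 506 and 266, 563 and 301, and 109 and 39 reads, with log2 ratios of -1.07, -1.06 and -1.28. The GTPase gene Iigp1 had 60 and 0 reads. Upstream of these, Stat2 was at -0.68, Irf7 at -0.81 and Irf9 at -0.29. Ifi35 (0.36), Oas1a (0.30) and Gbp2 (0.07) were the 3 genes above 0, and Igtp stood at -0.56.

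At E15 the same genes did not share that direction: 23 of 33 lay above 0 with a median of 0.16. Their levels there were lower in general, for example 53 and 64 reads of Mx2 and 147 and 188 reads of Parp14. Iigp1 did not follow, with 32 and 66 reads there beside 60 and 0 at E18. Read by library, the E18 wild type held the highest levels of Mx2, Parp14, Ifit1 and Ddx60 among the 4 libraries, but not of Iigp1. Those levels were 16.0, 52.7, 26.5 and 10.7 CPM. The E18 wild type was also the only library of the 4 without Xist reads, so sex cannot be told apart from its other differences in this reading. The E18 knockout library had 3.73 CPM of Mx2 and 20.7 CPM of Parp14, where the E15 libraries had 3.41 and 3.92 CPM of Mx2 and 9.46 and 11.5 CPM of Parp14. MHC class I genes, which interferons also raise, had 8 of 12 below 0 and a median of -0.17. H2-K1 was at -0.44 and B2m at -0.06, and Nlrc5, a transactivator of these genes, had 0 and 50 reads.

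**Figure D4:**
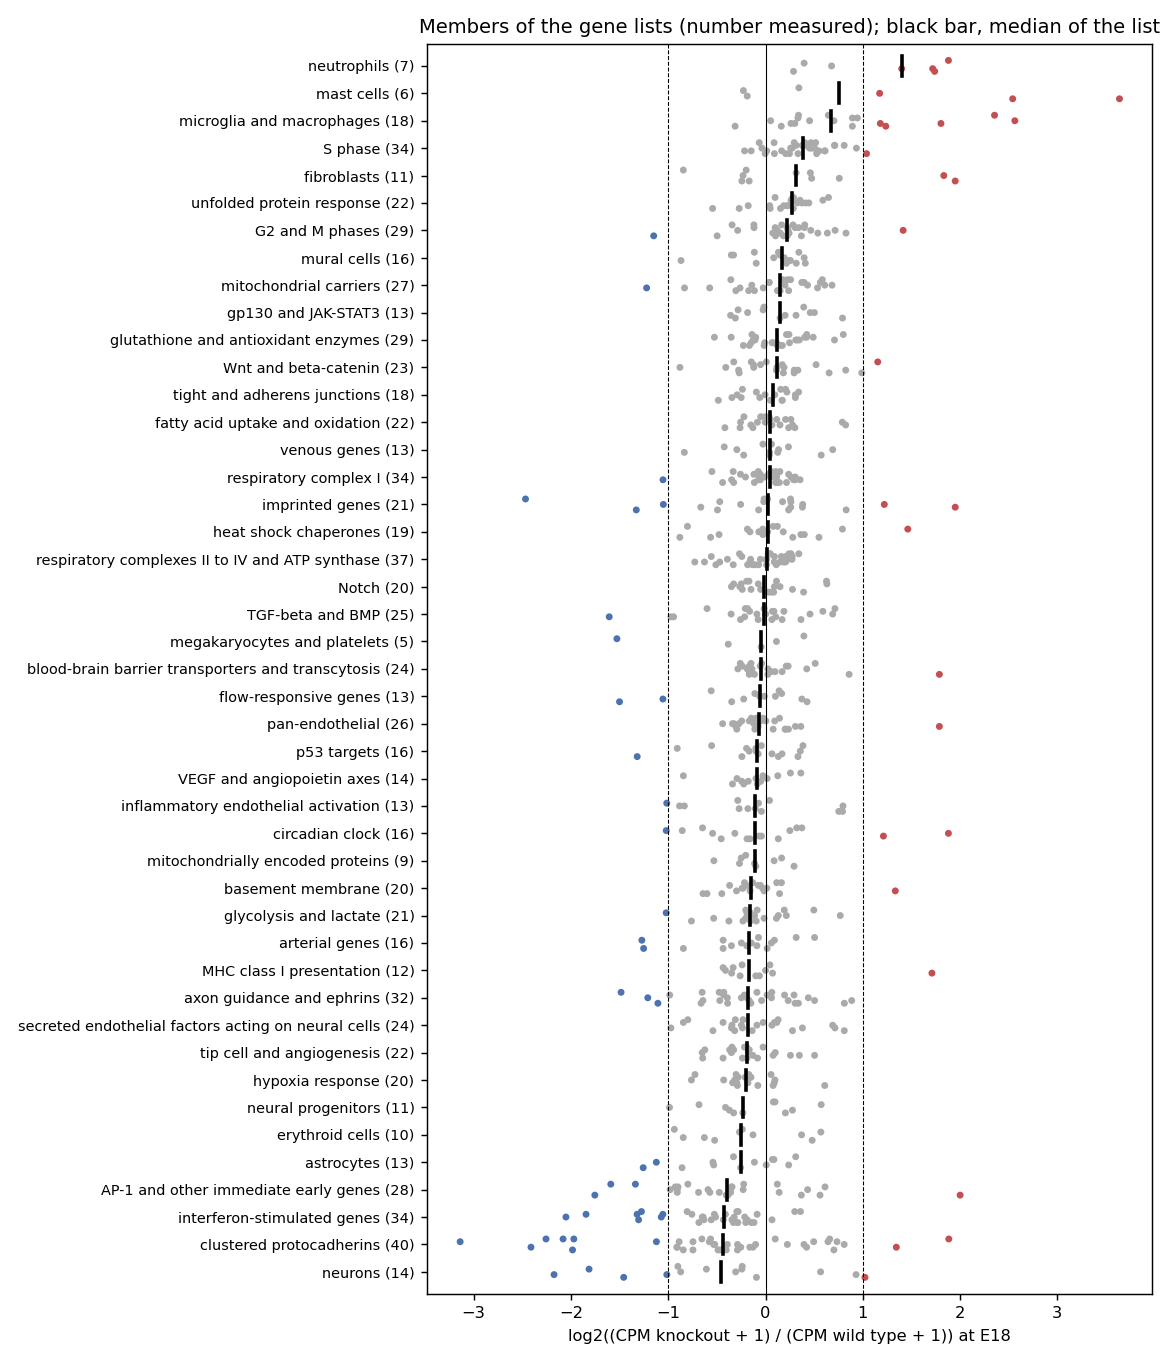
Log2 ratios of the measured members of each gene list with at least 5 measured (number in brackets), ordered by median (black bar); red and blue points are at least 2-fold higher or lower in the knockout library. Lists of neutrophils, mast cells, microglia and S phase stand at the top, and neurons, clustered protocadherins, interferon-stimulated genes and immediate early genes at the bottom, with the endothelial, barrier and respiratory lists near 0.

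Genes of cell division lay above 0. Of 34 measured S phase genes 29 were above 0 with a median of 0.38, and of 29 genes of G2 and M phases 23 were above 0 with a median of 0.22. Few passed 2-fold. E2f1, the transcription factor that opens S phase, had 62 and 170 reads (1.04, interval 0.82 to 1.69), and the mitotic checkpoint kinase Ttk had 85 and 298 (1.42, interval 1.25 to 1.97). Mcm3, a subunit of the replicative helicase, had 3297 and 5573 reads (0.55), Rrm2, the regulated subunit of ribonucleotide reductase, had 175 and 370 (0.81), and Gins1, another part of the helicase, had 88 and 214 (0.93). Aurkb, the kinase of the chromosomal passenger complex, had 852 and 1627 reads (0.72), and Mki67 had 509 and 862 (0.54). Cenpf, a large kinetochore protein, went the other way with 560 and 279 reads (-1.15). Once genes of similar exon length were centred on 0, the calls of both E2f1, at 1.00 after rounding, and Cenpf, at -0.99, were lost. The E2F letters TTTGGCGC or TTTCCCGC stood in 8 of 27 matched S phase promoters (29.6%) and in 3.56% of all matched promoters, but not in that of E2f1. Mcm3 shows both, in a window of the minus strand at chr1:20820263-20820313 on GRCm38.p6 that lies just after the start of the gene and ends with the promoter sequence.
Mcm3: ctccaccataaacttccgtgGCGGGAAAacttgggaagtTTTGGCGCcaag

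At E15 division genes pointed the other way, with 24 of 34 S phase and 23 of 29 G2 and M genes below 0 and medians of -0.09 and -0.18. Mcm3 had 3430 and 2978 reads there, and Mki67 1306 and 1028. Which cells of these libraries divided cannot be read from the sums. By median, genes of mural cells and of microglia and macrophages differed in the same direction as the division genes at both stages. The medians of the mural list were 0.17 at E18 and -0.62 at E15, and those of the microglia and macrophage list 0.67 and -0.77. Neutrophil genes did not follow at E15, with medians of 1.40 at E18 and 0.51 at E15. The part of these cells in the division genes was not tested.

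The lists of neutrophils, of mast cells and of microglia and macrophages had the highest medians of those with at least 5 measured genes. Of 18 measured genes of microglia and macrophages, 17 lay above 0 and 5 were at least 2-fold higher (27.8%, beside 2.88% of all genes). The summed level of all genes of this list in the E18 table was 476 CPM in the wild-type and 606 CPM in the knockout library. The most abundant members were nearer to level: Lgmn had 218 and 226 CPM (0.05) and Laptm5 159 and 190 CPM (0.26). Tmem119 and P2ry12, both typical of microglia, had 0 and 108 and 10 and 57 reads, Ctss, a lysosomal protease, 9 and 91, and the complement gene C1qb 116 and 331. Csf1r, the growth factor receptor of these cells, was the 1 gene below 0, with 233 and 212 reads (-0.31). At E15 C1qb, P2ry12 and Csf1r were far more abundant and lower in the knockout, with 1233 and 782, 1417 and 408, and 2459 and 1049 reads. Of 7 measured neutrophil genes all lay above 0 and 4 were at least 2-fold higher (57.1%, beside 2.88%). Ngp had 53 and 284 reads (1.88), lactoferrin, encoded by Ltf, 80 and 354 (1.72), S100a8 16 and 113 (1.74) and S100a9 22 and 103 (1.40). The more abundant Mmp9, with 5302 and 8057 reads, and Csf3r, with 415 and 589, were nearer to level at 0.40 and 0.29. At E15 Mmp9 was at -0.82. Elane, Ctsg, Cebpe, Cxcr2 and Gfi1 were not measured. Of 6 mast cell genes 3 were at least 2-fold higher (also beside 2.88% of all genes): Cpa3, Tpsb2 and Hdc, the histamine-forming enzyme, with 39 and 129 reads (1.17). Kit and Gata2, which endothelial cells also express, were at -0.23 and -0.19. Of the 2-fold higher genes of these lists, Tmem119, P2ry12, Ctss, S100a8, Cpa3 and Tpsb2 were under 1 CPM in the wild-type library. They met the limit of 1 CPM only through the knockout library. Among all genes with a mean of up to 2 CPM, 9.38% were 2-fold higher. At 2 to 5 CPM the share was 7.34%, and at 5 to 10 CPM 4.98%. Tie2-cre also acts in most blood cells, and its part in these values was not tested.

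Red cell and platelet genes did not follow. Of 10 erythroid genes 7 lay below 0 with a median of -0.25, and the globin gene Hba-a1 had 10902 and 10437 reads (-0.27); reads of Hba-a1 and its twin Hba-a2 are hard to assign. Of 5 megakaryocyte and platelet genes, Itgb3, the beta subunit of the fibrinogen receptor, was 2-fold lower with 196 and 64 reads (-1.53). Of the lymphocyte genes 2 were measured, Cd79b at -0.09 and Gata3 at -0.76. Fibroblast genes were split. Dcn, decorin, had 0 and 63 reads and Islr 6 and 81, whereas Col1a1 had 360 and 367 (-0.17) and Col3a1 2482 and 2435 (-0.23). The median over 11 genes was 0.32, but -0.17 when only genes with at least 5 CPM were kept, so the list has no settled direction.

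Genes of neurons and astrocytes lay mostly below 0. Of 14 measured neuronal genes 11 lay below 0, 4 were at least 2-fold lower (28.6%, beside 3.84% of all genes) and 1 at least 2-fold higher (7.14%, beside 2.88%). The 4 lower genes, Snap25, Elavl4, Celf4 and Dlx1, were under 1 CPM in the knockout library. They met the limit of 1 CPM only through the wild type. Among all genes with a mean of up to 2 CPM 12.1% were 2-fold lower, and at 2 to 5 CPM 10.8%. The summed level of all listed neuronal genes in the E18 table was 75.9 CPM in the wild-type and 59.3 CPM in the knockout library. Snap25, of synaptic vesicle fusion, had 67 and 0 reads, and the RNA-binding protein gene Elavl4 had 109 and 20 (-1.81). Gap43 and Map2, of growing axons and dendrites, stood against this with 36 and 107 (1.02) and 197 and 453 reads (0.93). Of 13 astrocyte genes 2 were at least 2-fold lower (15.4%, beside 3.84% of all genes). They were the glial filament gene Gfap with 68 and 20 reads (-1.26) and the adhesion protein gene Hepacam with 81 and 31 (-1.12). Both had a mean of 2 to 5 CPM, where 10.8% of all genes were 2-fold lower. Aqp4, the water channel of astrocyte endfeet, had 42 and 52 reads. Sparcl1 and Gja1, which the list shares with vascular cells, were at -0.11 and 0.01. Neural progenitor genes, 5 above and 6 below 0, had a median of -0.23, from Ptprz1 at -0.99 to Hes5 at 0.57. Of 3 measured genes of the oligodendrocyte lineage, Cspg5 and Cnp were at 0.83 and 0.45 and Olig1 at -0.83.

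Clustered protocadherins, cell-surface cadherins of which each neuron expresses its own combination, were spread widely. Of 40 measured, 28 lay below 0, 7 were at least 2-fold lower (17.5%, beside 3.84% of all genes) and 2 at least 2-fold higher (5.0%, beside 2.88%), with a median of -0.44. Pcdhb8 had 149 and 0 reads, Pcdhgb8 373 and 63 (-2.41), Pcdhb15 184 and 27 (-2.26) and Pcdhb16 348 and 85 (-1.98). Pcdhb9, with 50 and 272 reads (1.88), and Pcdhb6, with 12 and 69 (1.34), were on the other side. Pcdhb16 was also lower at E15, with 199 and 91 reads (-1.07), whereas Pcdhb8 had 54 and 194 reads there (1.53). Members of the gamma cluster share their last exons and the beta genes are similar in sequence, so reads may be split among them. Of 32 guidance genes and ephrins 3 were at least 2-fold lower, the semaphorins Sema5b with 112 and 32 reads (-1.48) and Sema4d with 304 and 139 (-1.21) and the Slit receptor Robo1 with 261 and 128 (-1.11). That is 9.38% of the list, beside 3.84% of all genes and 6.59% of those with a mean of 5 to 10 CPM. Their log2 ratios at E15 were -1.32, -0.86 and -0.66.

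Endothelial factors that act on neural cells, the theme of the series, gave no gene past 2-fold with 1 CPM added among 24 measured. Of these 15 lay below 0 with a median of -0.18, and Bmp2 passed 2-fold when 0.5 CPM was added, at -1.16. Bmp2 had 66 and 28 reads (-0.97), Vegfc 836 and 527 (-0.84), the matricellular gene Cyr61 30473 and 20193 (-0.80) and the chemokine gene Cxcl12 20447 and 17418 (-0.44). Spp1, osteopontin, had 21 and 59 reads (0.81), Tgfb1 65 and 137 (0.71) and Igf2 5354 and 8036 (0.38). The gp130 pathway, by which cytokines such as LIF and CNTF promote astrocyte formation, had 13 measured genes, none past 2-fold. Its receptors Lifr and Il6st were at 0.20 and -0.02 and its feedback inhibitor Socs3 at -0.36, and the ligand genes Lif, Ctf1, Clcf1 and Cntf were not measured.

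Around Ucp2 itself, mitochondrial genes were close to level. Of 27 measured mitochondrial carriers Ucp2 alone passed 2-fold, and 17 lay above 0 with a median of 0.15. The ATP-magnesium carrier Slc25a25 had 2000 and 1285 reads (-0.83) and the iron importer Slc25a37 151 and 293 (0.68), and the relatives Ucp1 and Ucp3 were not measured. Of 34 complex I genes 18 lay above 0 with a median of 0.04, and 1, Ndufa11, was 2-fold lower with 242 and 123 reads (-1.05). The 37 nuclear genes of complexes II to IV and ATP synthase had a median of 0.01 and ran from -0.73 for Cox7c to 0.34 for Uqcrfs1. Of 9 genes of the mitochondrial genome 6 lay below 0, from mt-Nd5 at -0.53 to mt-Atp6 at 0.29. At E15 the medians of these lists were 0.31 for complex I, 0.17 for the other complexes and -0.34 for the mitochondrial genome. Ppargc1b, a coactivator of mitochondrial biogenesis chosen after its values were seen, had 223 and 103 reads at E18 (-1.16) and 174 and 64 at E15 (-1.31).

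Fuel and redox genes were as near to level. Of 21 glycolysis and lactate genes 15 lay below 0 with a median of -0.15, and Eno1b was the 1 past 2-fold. Pdk1, which holds pyruvate out of the mitochondria, had 1657 and 1118 reads (-0.76) and the lactate dehydrogenase gene Ldha 27238 and 27491 (-0.19). Fatty acid genes had a median of 0.04 over 22 members. Cpt1a, the gate of mitochondrial fatty acid uptake, was at -0.22, and the fatty acid transport gene Slc27a4, with 171 and 366 reads, at 0.82. Of 29 glutathione and antioxidant genes 18 lay above 0 and none passed 2-fold. Gpx3, a secreted glutathione peroxidase, had 241 and 500 reads (0.80), Gclm, a subunit of the enzyme that limits glutathione synthesis, 165 and 325 (0.71), and mitochondrial superoxide dismutase, Sod2, 2110 and 3101 (0.35). Gclm was also higher at E15, with 217 and 1169 reads (2.28). Hypoxia genes lay below 0 in 15 of 20 with a median of -0.20, among them Ndrg1 at -0.72. Aen, a p53-induced nuclease, was lower at -1.32 with 193 and 76 reads, while Cdkn1a, the p53-induced inhibitor p21, was at 0.33.

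The stages were also compared gene by gene. Over 11378 genes that met the limits on reads at both, 284 were at least 2-fold higher at E18, of which 39 were higher and 39 lower by 2-fold at E15. Of 403 at least 2-fold lower at E18, 31 were lower and 20 higher by 2-fold at E15. Over all 11378 genes, 3.08% were 2-fold higher and 2.64% 2-fold lower at E15. Among 8143 genes with at least 10 CPM in a library at each stage, 90 were at least 2-fold higher in the knockout at E18 and 128 at E15. Of these 14 were higher at both, 15.6% of the E18 and 10.9% of the E15 genes, and 3 of the 90 were at least 2-fold lower at E15. The 14 were Sumf1, Rnf187, Sft2d3, Agtrap, Marcksl1, Nbl1, Tpst1, Slc16a9, Camk1, Dusp2, Thap11, Vapa, Clptm1 and Ctdp1. Rnf187, a ubiquitin ligase, had 676 and 2500 reads at E18 (1.65) and 2050 and 6459 at E15 (1.58), and Agtrap, a regulator of the angiotensin receptor, 222 and 791 (1.55) and 203 and 554 (1.31). On the lower side 118 genes were called at E18 and 73 at E15, with 6 at both stages: Trim2, Kif21a, Pcdhb16, Osbpl5, Ppargc1b and Eno1b. That is 5.08% of the E18 and 8.22% of the E15 genes, and 1 of the 118 was at least 2-fold higher at E15. Ucp2, at -0.75 at E15, stayed short of 2-fold there. For the shares of all genes called, 1.57% of the 8143 were 2-fold higher and 0.896% 2-fold lower at E15. Whether an overlap of this size differs from chance was not tested.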

How the data were processed

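RNA of brain endothelial cells was sequenced in 1 library per group, and the E18 pair was analysed with the E15 pair beside it. Per the file headers, the authors deposited raw read counts per Ensembl gene for each stage, with the knockout and wild-type library side by side. The authors' CPM values set a count of 0 to 0.5 read, and the deposited fold is the ratio of those CPM values and the deposited log2 value its logarithm. Some genes are not reported here. The deposited p-values rest on 1 library per side and were not used. Per the submitters' processing notes, TopHat2 2.0.12, Bowtie2 2.2.3 and HTSeq 0.6.0 were used with mm9, but 15461 of 17305 genes (89.3%) had the start and end of GENCODE M21, so coordinates are read as GRCm38.

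From the counts, CPM over each library's total and log2 ratios with a pseudocount of 1 CPM were computed (Python 3.11.15, pandas 2.3.3). A gene was called at 2-fold; the pseudocount understates differences of weak genes. Exact Clopper-Pearson 95% intervals (scipy 1.17.1) and the floor of 3 reads cover counting error only. The procedure was tested on simulated data. The members and the 48 gene lists were chosen with earlier results of these data known. Named genes were Ucp2, the 12 highest and 12 lowest ratios among genes of at least 10 CPM, genes with 0 reads against at least 100, and from each list the 2 members with the largest ratios, the 2 most abundant and others by role. Genes with a mean over 100 CPM that were called, the genes called at both stages, Gtpbp3 and those said to be so were chosen after their values were seen. Alternatives were other pseudocounts and filters, TMM scaling (edgeR 4.0.16), median-of-ratios size factors (DESeq2 1.42.0), X and Y genes kept, centring by exon length and, added after seeing the data, protein-coding genes only.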

Additional observations from a re-analysis of the deposited data

Results flagged for a closer look

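Several E18 values stood opposite to those at E15, past 2-fold at both stages for single genes; with 1 library per group these differences between stages were not tested. On the higher side at E18 were Ttr, at a log2 ratio of 3.20 (0 and 180 reads at E18, 202 and 5 at E15), Tmc5 at 3.07 (66 and 0 reads at E15), Fhl4 at 2.52 (67 and 0 at E15), Fcrls at 2.35 (1147 and 388 at E15), Islr at 1.83 (164 and 75 at E15) and Col15a1 at 1.33 (180 and 34 at E15). On the lower side were Pcdhb8 at -3.14 and Ptgs2 at -1.02. Of gene lists, the median of fibroblasts was 0.32 at E18 and -0.75 at E15, but just 6 of 11 genes lay above 0 at E18, and the E18 median was -0.17 among genes of at least 5 CPM and -0.08 without a filter. The median of microglia and macrophages was 0.67 and -0.77, with 17 of 18 genes above 0 at E18 and 16 of 18 below 0 at E15.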

How the results depend on the processing

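The number of genes called depended on the pseudocount and on the filter. With 5 CPM added, 40 genes were at least 2-fold higher and 73 lower. With no filter beyond 1 read the counts were 545 and 845, and with at least 5 CPM in a library 202 and 257, where more or fewer weak genes entered by construction. With 0.5 CPM added they were 443 and 578. TMM scaling gave 343 and 458, median-of-ratios size factors 345 and 451, X and Y genes kept 356 and 484, length centring 328 and 453, and protein-coding genes only, chosen after seeing the data, 304 and 358. The log2 ratio of Ucp2 ran from -1.23 to -1.17 over its alternatives. Of 66 named genes past 2-fold, 35 stayed past it with 5 CPM added and 64 after length centring, where Cenpf and E2f1 (1.00 after rounding) were lost. Apart from medians within 0.05 of 0, the list medians that changed sign were those of fibroblasts (-0.08 without a filter and -0.17 at 5 CPM), neural progenitors (0.09 without a filter) and gp130 genes (-0.10 at 5 CPM). With 1 library per group, no replicate could be left out. No paired analysis was possible because each group held 1 library. Below about 5 CPM, counting error alone spans much of the 2-fold range.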

Other observations

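Genes of the Ensembl class TEC lay lower in the E18 knockout library, and other non-coding classes differed less. Of 93 genes that Ensembl classes as TEC, unspliced transcripts awaiting experimental tests, 35 were at least 2-fold lower and 6 at least 2-fold higher, with a median log2 ratio of -0.78, while protein-coding genes had a median of 0.01 over 11103 genes. At E15 the TEC genes had a median of 0.16. Weak expression was shared with many coding genes: at a mean of 2 to 5 CPM, 16 of 40 TEC and 131 of 1284 protein-coding genes were at least 2-fold lower. Of 180 long intergenic RNAs, 23 were at least 2-fold lower and 10 higher with a median of -0.08, of 85 antisense genes 9 and 7 with a median of -0.07, and of 244 processed pseudogenes 7 and 5. Malat1, a nuclear RNA, had 718 and 232 reads at E18 (-1.74) and 1706 and 1823 at E15 (0.02), and Gdap10, which lies in Nampt on the same strand, had 1075 and 268 (-2.12) and 1761 and 2368 (0.35). Both were chosen after their values were seen.

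Imprinted and clock genes each held members on both sides. Of 21 imprinted genes 2 were at least 2-fold higher (9.52%, beside 2.88% of all genes) and 3 lower (14.3%, beside 3.84%). Kcnq1ot1, Zrsr1 with 92 and 29 reads (-1.33) and Rian with 121 and 56 (-1.05) were lower, Dlk1 with 65 and 204 (1.22) and Dcn were higher, and H19 had 582 and 1209 (0.83). Of 16 clock genes 2 were at least 2-fold higher (12.5%, beside 2.88% of all genes) and 1 lower (6.25%, beside 3.84%). The output genes Hlf, with 41 and 233 reads (1.88), and Dbp, with 6 and 45 (1.21), were higher. Clock, with 741 and 410 reads (-1.02), was lower. Several of the called imprinted and clock genes were weak. Among all genes with a mean of 2 to 5 CPM, 7.34% were 2-fold higher and 10.8% 2-fold lower. The core genes Arntl and Per1 were at 0.13 and -0.04.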
